A study of Mus musculus with 10 samples.

Results

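The 9 transcripts described here mark neurons of the brain regions from which microglia were prepared. Drd1, Drd2, Ppp1r1b, Penk, Adora2a, Rgs9 and Pde10a are genes of the projection neurons of the striatum, and Th and Slc6a3 are genes of the dopamine neurons of the midbrain. They were chosen by symbol for where they are known to be expressed, from 53715 genes counted in each library, and their counts were read as RNA of local neurons carried over into the microglial preparations. The question was whether such carry-over differed with the dissected region.

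Microglia were isolated from untreated C57BL/6 mice (C57BL/6 J in the methods of the study) aged 3 months after perfusion, papain digestion, a Percoll step and selection of CD11b+ cells on magnetic beads, and their polyA RNA was sequenced in bulk by MARS-seq, which reads the 3′ ends of transcripts. Exp 1, whose titles carry the word pilot, comprised 2 midbrain and 2 striatum libraries. Exp 2 comprised 2 midbrain libraries (replicates 1 and 3) and 2 striatum libraries (replicates 1 and 3) whose labels name a single region, and 2 further libraries, titled Mdb 2 and Str 2, whose title and deposited file name give opposite regions. The latter 2 were given no region, entered no comparison apart from the alternatives that place them, and are shown separately throughout. Strain, age, housing and purification were shared by all 10 libraries, no library of whole tissue was analysed here, and selection on CD11b also takes myeloid cells other than microglia. Exp 1 used 2 mice and Exp 2 used 3, with both regions examined, so midbrain and striatum libraries share animals. The labels do not say which libraries came from which animal, the tests treat the libraries as independent, and p-values measure the spread between these libraries, which may be technical in part.

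The striatum receives dense dopamine input, and nearly all of its neurons are spiny projection neurons. Those of the direct pathway carry the dopamine D1 receptor, and those of the indirect pathway carry the D2 receptor, an adenosine receptor and the opioid peptide enkephalin. The dopamine neurons lie in the midbrain, in the substantia nigra and the ventral tegmental area, so the RNA of tyrosine hydroxylase and of the dopamine transporter is found mainly there, while the proteins also reach the terminals in the striatum.

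The 10 libraries held 575709 to 8463782 counts, the largest 14.7 times the smallest, and the smallest was striatum replicate 3 of Exp 2. A level of 3 counts, taken as the floor, corresponded to 0.357 CPM (the unit of all levels below: counts brought to the same library total with TMM factors) in the deepest library and 5.24 CPM in the shallowest. Neither these floors nor the Poisson intervals below include more than counting error, because reads copied from 1 molecule are not independent. The 12 microglial marker genes, such as Csf1r, Tmem119, P2ry12 and Cx3cr1, summed to 11980 CPM or more in every library, as against 10.3 to 35.9 CPM for the 7 striatal genes together.

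Both dopamine receptor genes were at or next to the floor in every library. Drd1 (ENSMUSG00000021478.6, chr13:54051183-54055705 in GRCm38, minus strand), which encodes the D1 receptor, had 2 counts in midbrain replicate 2 of Exp 1 and 3 counts in midbrain replicate 1 of Exp 2. In the other 8 libraries, all 4 striatum libraries among them, Drd1 had 0 counts, with upper Poisson limits of 0.439 to 6.45 CPM. Drd2 (ENSMUSG00000032259.8, chr9:49340627-49408177, plus strand), which encodes the D2 receptor, had 4 and 0 midbrain counts against 4 and 1 striatum counts in Exp 1, and 0 and 1 against 1 and 0 in Exp 2. Both unassigned libraries had 0 counts of Drd2. Over the 4 libraries of each region, Drd1 summed to 5 counts in the midbrain and 0 in the striatum, and Drd2 to 5 and 6 counts, so that no regional difference of either receptor was detectable at this depth. Neither gene passed the filter on low counts (at least 6 counts in at least 50% of the libraries of a fit), and no fold change is given for them. Here and below, fewer cells of a type and less RNA per cell cannot be told apart in bulk libraries.

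**Figure D1:**
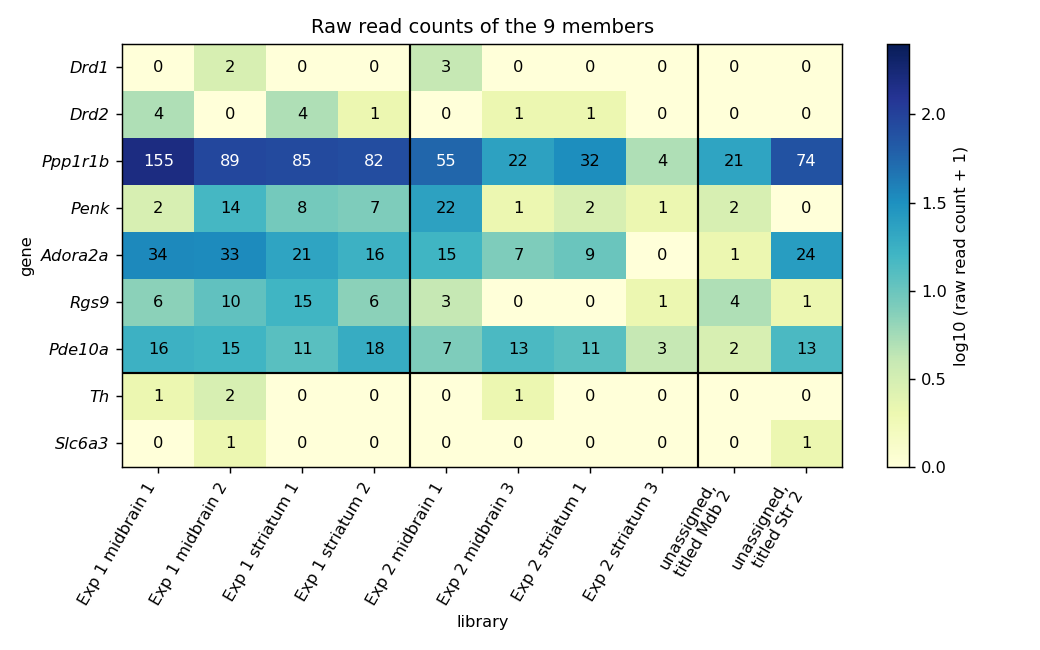
Raw read counts of the 9 genes (rows) in the 10 libraries (columns). The colour gives log10 of the count plus 1, the horizontal line separates striatal from dopamine neuron genes, and the vertical lines separate Exp 1, Exp 2 and the 2 unassigned libraries. Ppp1r1b was the only gene with at least 4 counts in all 10 libraries, and Drd1, Drd2, Th and Slc6a3 had at most 4 counts in any library.

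Adora2a (ENSMUSG00000020178.6, chr10:75316877-75334784, plus strand) encodes the adenosine receptor that indirect pathway neurons carry and that leukocytes also make. Its level was 5.63 and 5.81 CPM in midbrain libraries of Exp 1, from 34 and 33 counts, and 3.97 and 1.90 CPM in the striatum libraries, from 21 and 16 counts. Both midbrain libraries of Exp 1 thus lay above both striatum libraries. The share of all genes with that order in Exp 1 alone was not determined, so the order by itself is no finding. In Exp 2 it was 3.19 and 1.64 CPM in the midbrain and 3.26 and 0 CPM in the striatum, where the regions overlapped and the 0 came from the shallowest library. The unassigned libraries gave 0.637 CPM (titled Mdb 2, 1 count) and 4.56 CPM (titled Str 2, 24 counts).

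Adora2a was the gene of the 9 with the smallest p-value in the joint fit and in Exp 1, and in each the value was higher in the midbrain, the region with fewer of the neurons it marks. The log2 difference, midbrain minus striatum, was 0.94 ± 0.46 (SE; 95% interval -0.05 to 1.94) in the joint fit of the 8 assigned libraries with limma, with an adjusted p of 0.37. In Exp 1 alone it was 1.14 ± 0.48, with an unadjusted p of 0.0435 in limma that did not reach the cutoff of 0.01 used within an experiment, and an adjusted p of 0.45. The value for Exp 2 was 0.26 ± 0.89 (limma, adjusted p = 0.947). The summed level of 16 genes of leukocytes and border macrophages moved with region in the same libraries. It was 1352 to 8785 CPM in the 4 midbrain libraries and 550.5 to 699.7 CPM in the 4 striatum libraries, with 8 of its 12 tested genes higher in the midbrain at an adjusted p under 0.05 in limma, among them S100a9, Pf4 and Ccr2, and none of the 16 at 0 in every library. Those joint calls depend on the libraries included. The joint fit called 0 genes in all without midbrain replicate 1 of Exp 1 or without striatum replicate 1 of Exp 2. Within each experiment, 10 of the 12 tested genes were called, all higher in the midbrain (limma, unadjusted p under 0.01). Over all genes, 2.64% were called in Exp 1 and 3.47% in Exp 2. The part of leukocytes and border macrophages in the Adora2a counts was not tested.

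Ppp1r1b (ENSMUSG00000061718.12, chr11:98348404-98357796, plus strand) encodes DARPP-32, the phosphoprotein through which dopamine receptors act on protein phosphatase 1 in spiny neurons. It gave 44.4% to 71.4% of the counts of the 7 striatal genes in each library. In Exp 1 it was 25.7 CPM (Poisson interval 21.8 to 30.0) and 15.7 CPM (12.6 to 19.3) in the midbrain and 16.1 CPM (12.8 to 19.9) and 9.75 CPM (7.75 to 12.1) in the striatum. The midbrain mean of 20.7 ± 7.06 CPM (SD, n = 2) was above the striatum mean of 12.9 ± 4.46 CPM (n = 2), but midbrain replicate 2 lay just under striatum replicate 1. Exp 2 gave 11.7 and 5.15 CPM in the midbrain and 11.6 and 6.99 CPM in the striatum, the last from 4 counts, and the regions overlapped in full. The unassigned libraries, at 13.4 CPM (titled Mdb 2, 21 counts) and 14.1 CPM (titled Str 2, 74 counts), differed by less than their counting error.

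No regional difference of Ppp1r1b passed the test. The log2 difference, midbrain minus striatum, was 0.51 ± 0.36 (95% interval -0.27 to 1.28; limma, adjusted p = 0.55) in the joint fit, 0.74 ± 0.35 in Exp 1 (limma, unadjusted p = 0.0624) and -0.42 ± 0.59 in Exp 2 (limma, unadjusted p = 0.493). Without striatum replicate 1 of Exp 1, the difference in Exp 1 was 1.04, higher in the midbrain, with an unadjusted p of 0.00369 in limma, past the cutoff. That fit has a single striatum library, which is assumed to vary as the midbrain libraries did, and it called 2445 genes in all, as against 395 with the library. The highest Ppp1r1b level was in midbrain replicate 1 of Exp 1, where 10 genes of choroid plexus and ependyma also summed to 4342 CPM, as against 48.4 to 617 CPM in the other 9 libraries. The part of these cells in the Ppp1r1b counts was not tested. The gene shares 460 exonic bases with 1700003D09Rik on the other strand, which had at most 1 count in any library, and none of them lie in the last 500 exonic bases of Ppp1r1b.

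**Figure D2:**
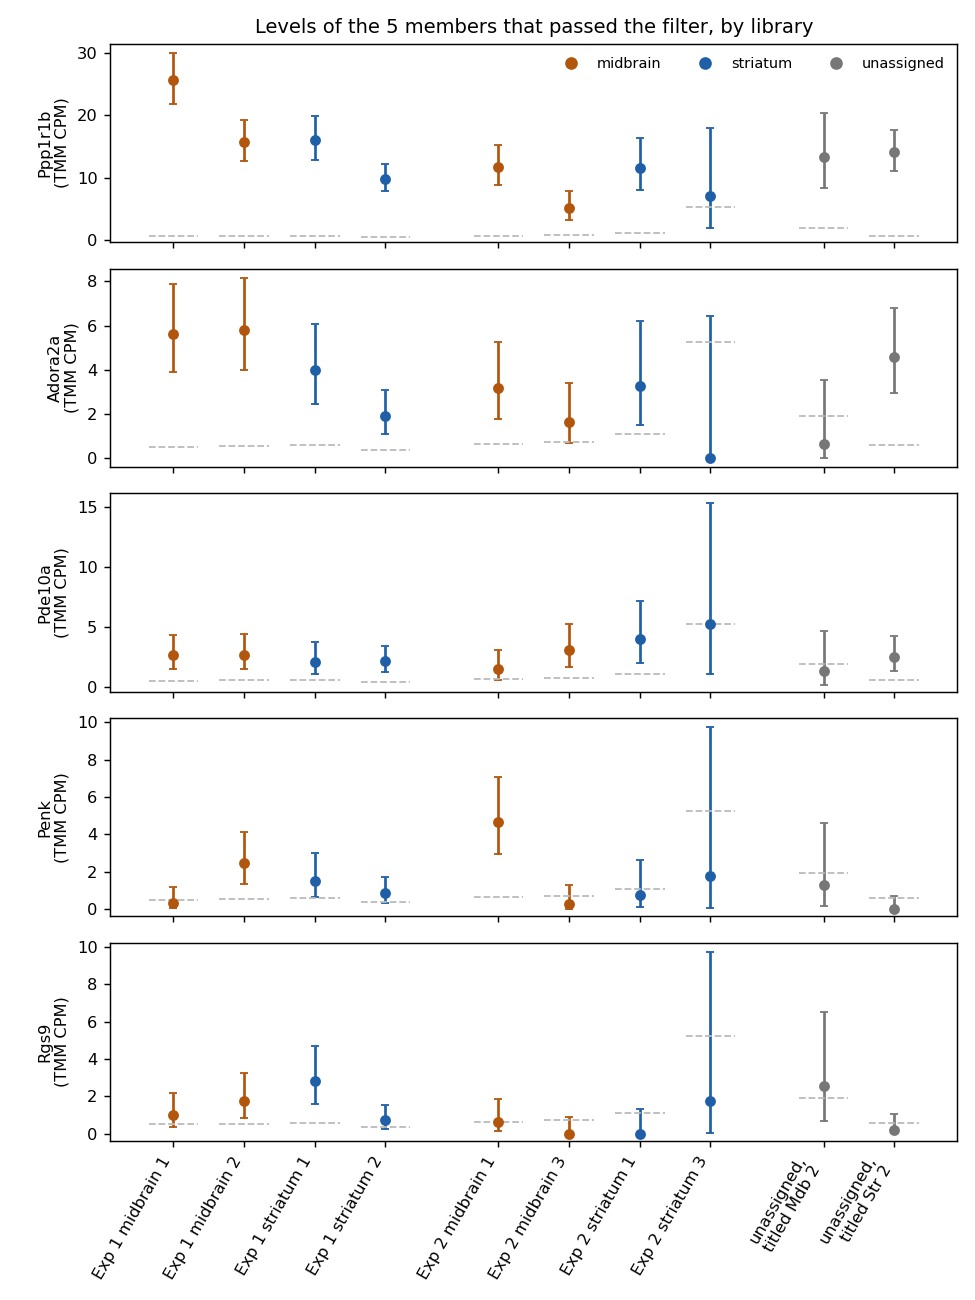
TMM-scaled CPM (vertical axes, linear) of Ppp1r1b, Adora2a, Pde10a, Penk and Rgs9 in the 10 libraries (horizontal axis), coloured by region, with exact 95% Poisson intervals of the counts as bars and the floor of 3 counts as dashed lines. Midbrain and striatum libraries overlap in both experiments for Ppp1r1b, Penk and Rgs9, and the bars are widest in Exp 2 striatum 3, the library with 575709 counts.

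Pde10a (ENSMUSG00000023868.15, chr17:8525372-8986648, plus strand) encodes a phosphodiesterase that breaks down cyclic AMP and cyclic GMP and is abundant in spiny neurons of both pathways. Its level was 2.65 and 2.64 CPM in midbrain libraries of Exp 1 and 2.08 and 2.14 CPM in the striatum libraries. The midbrain libraries were thus higher, but from 16 and 15 counts against 11 and 18, with overlapping Poisson intervals. Exp 2 gave 1.49 and 3.04 CPM in the midbrain and 3.98 and 5.24 CPM in the striatum, so the striatum libraries were higher, the last from 3 counts. The unassigned libraries gave 1.27 CPM (titled Mdb 2, 2 counts) and 2.47 CPM (titled Str 2, 13 counts). The log2 difference, midbrain minus striatum, was 0.32 ± 0.53 in Exp 1 and -1.09 ± 0.73 in Exp 2, neither past the cutoff in limma (unadjusted p = 0.557 and 0.163), and -0.23 ± 0.45 in the joint fit (95% interval -1.21 to 0.75; limma, adjusted p = 0.85). The difference between the 2 experiments, tested as an interaction, was -1.45 ± 0.82 (limma, adjusted p = 0.861), and the opposite orders were therefore not told apart from the spread between libraries.

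Rgs9 (ENSMUSG00000020599.13, chr11:109225355-109298129, minus strand) encodes a regulator of G protein signalling, a form of which acts on dopamine receptor signalling in the striatum. Exp 1 gave 6 and 10 midbrain counts and 15 and 6 striatum counts, or 0.993, 1.76, 2.83 and 0.713 CPM. In Exp 2 it had 3 and 0 counts in the midbrain and 0 and 1 in the striatum, and the unassigned libraries had 4 (titled Mdb 2) and 1 (titled Str 2). The regions overlapped in both experiments, and the joint log2 difference was -0.34 ± 0.83 (95% interval -2.15 to 1.48; limma, adjusted p = 0.885).

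Penk (ENSMUSG00000045573.9, chr4:4133531-4138819, minus strand) encodes the precursor of the enkephalin peptides, which indirect pathway neurons release, and it is also made by neurons of many other regions. Exp 1 gave 2 and 14 midbrain counts against 8 and 7 striatum counts, and Exp 2 gave 22 and 1 against 2 and 1. The highest level, 4.68 CPM, and the second highest, 2.47 CPM, were thus both in midbrain libraries, while the other midbrain library of each experiment lay below both striatum libraries. The library titled Mdb 2 had 2 counts, and that titled Str 2 had 0. The joint log2 difference was -0.11 ± 0.85 (95% interval -1.97 to 1.74; limma, adjusted p = 0.963), and its sign changed with the tool, as it was 0.70 with edgeR and 0.71 with DESeq2. No direction is given for Penk.

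Th (ENSMUSG00000000214.11, chr7:142892752-142931128, minus strand), which encodes the enzyme that sets the rate of dopamine synthesis, had 1 and 2 counts in midbrain libraries of Exp 1, 0 and 1 in those of Exp 2, and 0 in all 4 striatum libraries and both unassigned libraries. Slc6a3 (ENSMUSG00000021609.6, chr13:73536747-73578672, plus strand), which encodes the dopamine transporter, had 1 count in midbrain replicate 2 of Exp 1 and 1 count in the library titled Str 2, and 0 in the other 8. The 4 midbrain libraries together held 5 counts of both genes and the 4 striatum libraries 0. Since every library was at or under the floor for each gene, no fold is given, and a difference between regions was not detectable at this depth. The sum of both was 0.347 ± 0.257 CPM (SD, n = 2) in midbrain libraries of Exp 1 and 0.117 ± 0.166 CPM (n = 2) in those of Exp 2, where the floor of a single library is 0.638 CPM or more.

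Of the 9 genes, 5 entered the joint fit and the fit of Exp 1 and 3 that of Exp 2 (Ppp1r1b, Adora2a and Pde10a), and limma called none of them in any of the 3 fits. At an unadjusted p under 0.05 the counts were 0 of 5 in the joint fit, 1 of 5 in Exp 1 (Adora2a) and 0 of 3 in Exp 2, and edgeR and DESeq2 gave 0 in each fit at either level. Over all genes, the shares at an unadjusted p under 0.05 in limma were 14.6% in the joint fit, 10.9% in Exp 1 and 10.6% in Exp 2. Of all genes tested, 1.06% were called in the joint fit (adjusted p under 0.05), 2.64% in Exp 1 and 3.47% in Exp 2 (unadjusted p under 0.01), so a count of 0 among 5 or 3 genes is near that background. The median log2 difference was -0.11 over the 5 genes and 0.04 over all 14053 genes of the joint fit. None of the 5 had every midbrain library above every striatum library in both experiments, or the reverse, an order that 8.14% and 6.67% of all genes showed. The interaction of region and experiment was called for 0 of the 5, with 0 at an unadjusted p under 0.05 by limma, edgeR or DESeq2, and for 0% of all genes by limma. Without the shallowest library, the counts called stayed at 0 in the joint fit and in Exp 2.

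**Figure D3:**
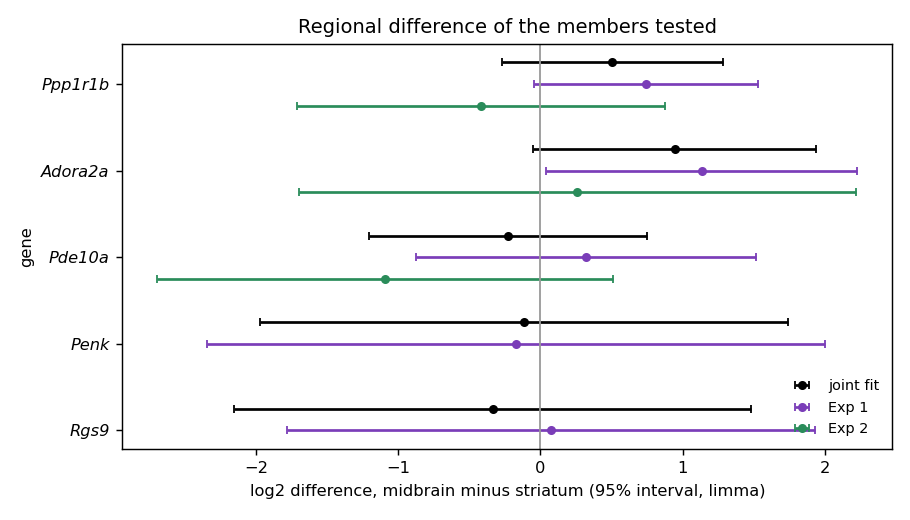
Log2 difference, midbrain minus striatum (horizontal axis), of the genes tested (vertical axis), with 95% intervals from limma, in the joint fit (black), Exp 1 (purple) and Exp 2 (green). Every interval includes 0 apart from that of Adora2a in Exp 1, whose unadjusted p was 0.0435, and Penk and Rgs9 were not fitted in Exp 2.

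The summed level of the 7 striatal genes was lower in both striatum libraries than in both midbrain libraries of Exp 1, and overlapped between the regions in Exp 2. In Exp 1 it was 35.9 and 28.7 CPM in the midbrain and 27.2 and 15.5 CPM in the striatum, with means of 32.3 ± 5.10 and 21.3 ± 8.31 CPM (SD, n = 2 each). The Poisson intervals of midbrain replicate 2 (24.5 to 33.5 CPM) and striatum replicate 1 (22.9 to 32.0 CPM) overlapped. In Exp 2 it was 22.3 and 10.3 CPM in the midbrain and 19.9 and 15.7 CPM in the striatum, with means of 16.3 ± 8.49 and 17.8 ± 2.96 CPM. Log2 of the striatum mean over the midbrain mean was -0.60 in Exp 1 and 0.13 in Exp 2. The unassigned libraries, at 19.1 CPM (titled Mdb 2) and 21.3 CPM (titled Str 2), lay inside the range of both regions. Without Ppp1r1b, the order of Exp 1 was lost. The sum of the remaining striatal genes was then 10.26 and 13.04 CPM in its midbrain and 11.15 and 5.705 CPM in its striatum libraries.

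To set the striatal genes against neuronal RNA in general, their counts were expressed as a share of the summed counts of these 7 genes and 22 genes of most neurons. That share was 8.28% and 7.54% in midbrain libraries of Exp 1 and 6.36% and 5.80% in the striatum libraries. In Exp 2 it was 9.09% and 4.25% in the midbrain and 6.76% and 11.1% in the striatum, and the exact Clopper-Pearson interval of the last, from 9 striatal counts, was 5.21% to 20.1%. It was 10.0% in the library titled Mdb 2 (6.87% to 14.0%) and 4.78% in that titled Str 2 (3.96% to 5.73%). The share was thus higher in both midbrain libraries of Exp 1 and overlapped in Exp 2. In Exp 1 the intervals of midbrain replicate 2 (6.46% to 8.73%) and striatum replicate 1 (5.39% to 7.45%) overlapped. Elavl3, an RNA-binding protein of neurons, gave 54.2% to 68.6% of the counts of the 22 genes, and without it the shares ran from 11.8% to 21.6% over the 10 libraries, in the same order of regions in Exp 1. The intervals of midbrain replicate 2 (14.8% to 19.7%) and striatum replicate 1 (14.1% to 19.1%) of Exp 1 again overlapped.

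**Figure D4:**
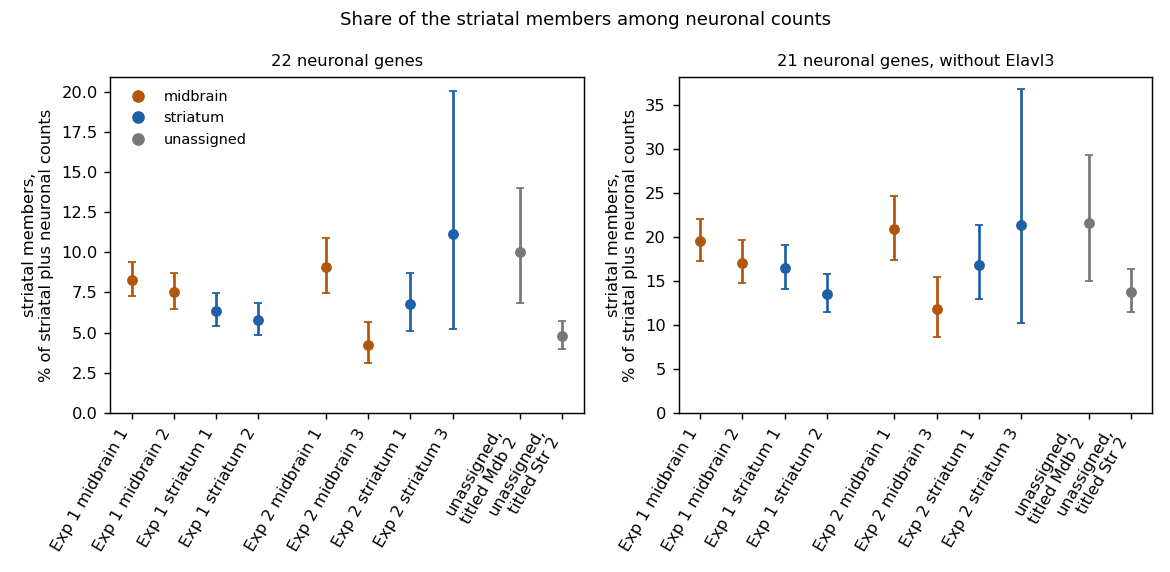
Counts of the 7 striatal genes as a percentage of these counts plus those of the neuronal list (vertical axes, from 0), by library, with exact 95% Clopper-Pearson intervals, for 22 neuronal genes (left) and for 21 without Elavl3 (right). Both striatum libraries of Exp 1 lie below both midbrain libraries in each panel, with overlapping intervals for midbrain 2 and striatum 1, and the libraries of Exp 2 overlap.

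Other genes of the same neurons gave no call in the joint fit, and Gch1 was called in Exp 2. Of 25 further genes of striatal neurons, 24 were in the files, Gpr149 and Chrm4 had 0 counts in all 10 libraries, and 0 of the 9 tested were called in the joint fit (limma; 1 at an unadjusted p under 0.05, Meis2, with a log2 difference of -1.48), with a median log2 difference of -0.17. The 4 with the highest mean level, Pde1b, Adcy5, Gnal and Gng7, which act in cyclic nucleotide and G protein signalling and are not confined to the striatum, had joint log2 differences of -0.17, 0.34, 0.15 and 0.07. Of 20 further genes of dopamine neurons, Pitx3, Foxa2 and Chrna6 had 0 counts in every library, and 0 of the 8 tested were called in the joint fit. An unadjusted p under 0.05 in limma was found for 4 of the 8 (Gch1, Nr4a2, En2 and Dlk1), all with higher fitted values in the midbrain, and the median log2 difference was 0.80. Aldh1a1, Gch1, Ddc and Nr4a2 had the highest mean levels of that list, with joint log2 differences of 0.18, 1.06, 0.54 and 1.39 (limma, adjusted p = 0.91, 0.23, 0.344 and 0.233). Within the experiments, 0 of the 8 tested were called in Exp 1 and 1 of the 7 tested in Exp 2, Gch1, higher in the midbrain by 1.84 on the log2 scale (limma, unadjusted p = 0.0084), while the list of further striatal genes had 0 calls in both. Gch1 makes the cofactor of tyrosine hydroxylase and Nr4a2 is a nuclear receptor, and leukocytes make both as well.

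Transcription factors that mark the forebrain or the midbrain were also read, since they can be made by glia and progenitors as well as by neurons. Among 14 factors of the telencephalon, the 3 tested in the joint fit gave 0 calls and 2 at an unadjusted p under 0.05 (limma), both with higher fitted values in the striatum, among them Lhx2. The other factor tested, Six3, went the other way, with a joint log2 difference of 0.89 (limma, unadjusted p = 0.177). In Exp 1 Six3 was at 14.2 and 5.11 CPM in midbrain against 3.21 and 2.85 CPM in striatum libraries (limma, unadjusted p = 0.0293, not called). In Exp 2 the regions overlapped for Six3. For Lhx2, Exp 1 gave 6.79 and 2.29 CPM in midbrain against 10.8 and 8.56 CPM in striatum libraries, and Exp 2 gave 1.70 and 2.34 against 7.61 and 10.5 CPM. Every striatum library thus lay above every midbrain library of its experiment, an order shown by none of the 5 neuronal genes tested, and the joint log2 difference was -1.45 ± 0.40 (limma, adjusted p = 0.115). In Exp 2 Lhx2 was called, with a log2 difference of -2.06 (limma, unadjusted p = 0.00853), and in Exp 1 it was not, at -1.21 (unadjusted p = 0.037), but the interaction was called neither for Lhx2 nor for Gch1. The unassigned libraries lay between the regions of Exp 2 for Lhx2, at 4.46 CPM (titled Mdb 2, 7 counts) and 3.42 CPM (titled Str 2, 18 counts). Of 18 genes of other midbrain neurons, 2 were tested in the joint fit (Irx3 and Irx5) and 0 called, with joint log2 differences of 0.85 and 0.76. Tph2, Fev and Ucn of that list had 0 counts in every library, as Lhx8 did among the telencephalic factors.

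Glial RNA was far more abundant than that of the 9 genes. The 10 oligodendrocyte genes, such as Mbp and Cnp, summed to 5916 to 15130 CPM over the 10 libraries and the 10 astrocyte genes to 417 to 2084 CPM, with 0 of 10 called in each list in the joint fit (limma; at an unadjusted p under 0.05, Pdgfra in the first list and Slc1a3 and S100b in the second). The 22 neuronal genes summed to 126 to 424 CPM, and Elavl3 alone gave 54.2% to 68.6% of the counts of that list. Of its genes, 0 of the 14 tested were called (5 at an unadjusted p under 0.05 in limma, among them Eno2 and Uchl1 with higher fitted values in the midbrain and Stmn2 and Elavl4 in the striatum). Of 8 genes of cortical neurons, Tbr1 and Lamp5 had 0 counts in every library, and the list summed to 1.75 to 18.9 CPM, with Nrgn, the 1 gene tested, not called. For 10 endothelial and mural genes and for the 9 tested of choroid plexus and ependyma, 0 were called (at an unadjusted p under 0.05, Pecam1, Pdgfrb and Rgs5 in the first list and Ttr and Enkur in the second), and of the 12 microglial genes 2 were called, Siglech and Olfml3, both higher in the striatum. All 12 had higher fitted values in the striatum, 10 of them at an unadjusted p under 0.05, and both calls were lost without midbrain replicate 1 of Exp 1 or without striatum replicate 1 of Exp 2, when the joint fit called 0 genes. Within an experiment (limma, unadjusted p under 0.01), 1 neuronal and 1 astrocyte gene (Slc1a3) were called in Exp 2, 1 choroid plexus gene (Ttr) in Exp 1, and 3 microglial genes in Exp 1 and 4 in Exp 2.

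**Figure D5:**
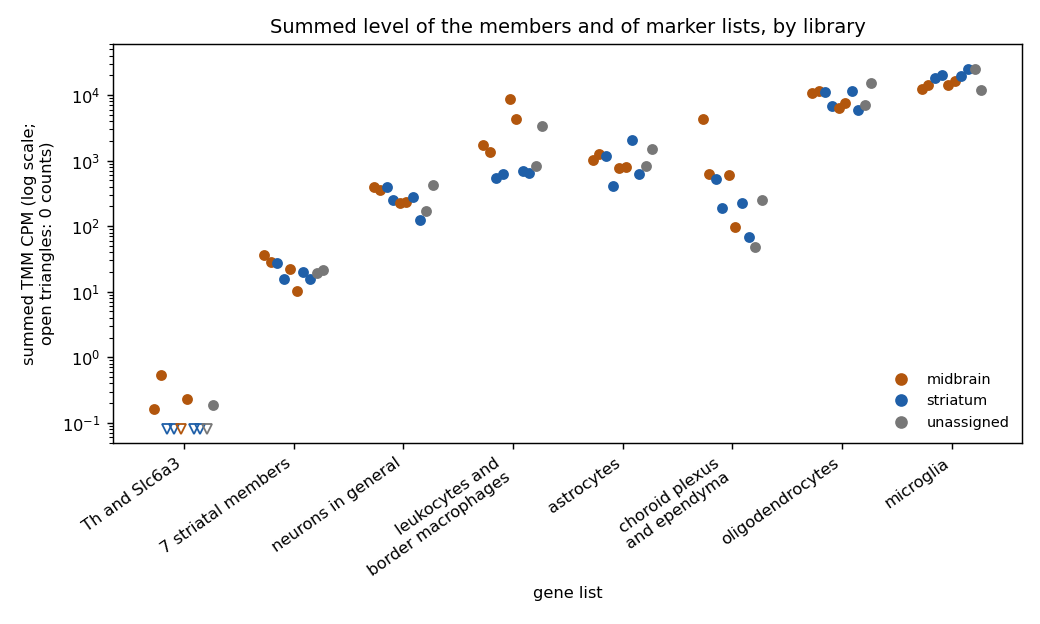
Summed TMM-scaled CPM (vertical axis, log scale) of the dopamine neuron genes, the 7 striatal genes and 6 lists of marker genes (horizontal axis), 1 point for each of the 10 libraries, coloured by region, with open triangles at the bottom for sums of 0 counts. The striatal genes lie between 10.3 and 35.9 CPM in all libraries, whereas leukocyte genes separate the assigned regions, at 1352 CPM or more in midbrain and at most 699.7 CPM in striatum libraries.

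The 5 genes tested were also compared with each other. Over the 10 libraries, after the mean of each experiment was subtracted, Pearson's r of log2 CPM between pairs of them ranged from -0.53 to 0.55 over 10 pairs, and 3 of those r were above 0. At counts of this size such values are no finding. The genes whose levels were most like the summed level of the 7 striatal genes, among 13811 genes compared, were Lama2, Enpp4, Gm973, Zmpste24, St6galnac3, Tmem29, Zcchc18, Ccdc187, Ank2 and Dnaic1, with r of 0.918 down to 0.862 over the 10 libraries. The 5% and 95% points of r over all genes compared were -0.59 and 0.58, and the libraries also share depth and cell makeup. None of the 10 belongs to the lists of striatal or dopamine neuron genes used here.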

How the data were processed

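Per the labels and the paper's methods, the authors aligned the reads of 10 libraries to GRCm38 with STAR 2.5.3a, counted them over exons of Gencode M17 with featureCounts 1.6.0, without strand and without reads assigned to several genes, and deposited raw read counts per gene, with no normalization. No use of molecular identifiers is given in the sources used here, so counts are of reads. Symbols (Gencode M21) matched 53620 of 53715 gene identifiers, 2156 of them without the version, and the first identifier was used for a symbol with several. All 9 genes matched.

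Counts were scaled with TMM factors (edgeR 4.0.16), over all 10 libraries for the levels shown and over the libraries of a fit for tests. A gene entered a fit if at least 50% of its libraries held 6 counts or more. Differences were fitted with voom and limma 3.58.1 (R 4.3.3), two-sided. The fit within each experiment and its unadjusted p under 0.01 follow the study's methods. The joint fit over 8 libraries with experiment as covariate (Benjamini-Hochberg adjusted p under 0.05 over all genes fitted) and the interaction term were added here. Sums and shares got no test. For Th and Slc6a3 the difference of mean CPM replaced the planned log2 ratio, since the striatum was at 0. Intervals are exact Poisson or Clopper-Pearson intervals (scipy 1.17.1).

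The 9 genes and all lists were chosen with earlier results of these data known. Named beside them were, for each list, up to 4 genes with the highest mean CPM and those called in the joint fit, and the 10 genes with the highest r with the summed striatal genes (at least 6 counts in at least 5 libraries, log2 CPM with a prior count of 2). Genes at 0 in all libraries and further genes with an unadjusted p under 0.05 were named after their values were seen, and some genes of the lists are not reported here.

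On simulated counts with changed genes, the joint fit (14053 genes) recovered 58 of 100 genes changed by 2-fold and 100 of 100 changed by 4-fold, Exp 1 (14972 genes) 54 and 98, Exp 2 (13486 genes) 53 and 97, and the interaction 1 and 32. The changed genes were drawn only from genes with higher mean counts than Adora2a, Pde10a, Penk and Rgs9 had in the joint fit. Every gene was also given the same simulated spread, so the recoveries of the joint fit do not carry over to genes with counts as low as theirs. The alternatives comprised DESeq2 1.42.0, the quasi-likelihood test of edgeR, library size scaling, no filter, at least 10 counts in every library, counts thinned to the smallest library, leaving out each library, the replicate number as a block, both placements of the unassigned libraries and, for sums and shares, other gene lists. The neuronal list without Elavl3 was added after seeing the data.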

Additional observations from a re-analysis of the deposited data

Results flagged for a closer look

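Pde10a was flagged because both midbrain libraries of Exp 1 were above both striatum libraries and both striatum libraries of Exp 2 were above both midbrain libraries. The share of all genes with such opposite orders was not determined. In Exp 1 the order rests on 16 and 15 midbrain counts against 11 and 18 striatum counts. Their Poisson intervals overlapped, at 1.51 to 4.30 and 1.48 to 4.36 CPM in the midbrain and 1.04 to 3.72 and 1.27 to 3.38 CPM in the striatum. The difference between the experiments, -1.45 on the log2 scale, was tested and did not pass (limma, adjusted p = 0.861), and without the shallowest library, which holds 3 of the Pde10a counts, it was -1.23 (adjusted p = 0.833).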

How the results depend on the processing

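None of the tested genes was called in the joint fit, in Exp 2 or for the interaction under any alternative run, but with at least 10 counts in every library, 0 of the 9 genes were left to test in these 3 fits, and thinning left 1 in the joint fit and 0 in Exp 2. In Exp 1 the number called ranged from 0 to 1 with a library left out (Ppp1r1b, without striatum replicate 1) and was 0 otherwise. Over all genes, the joint fit called 149 and the alternatives 237 (edgeR), 554 (DESeq2), 277 (no filter), 57 (at least 10 counts), 308 (replicate block), 0 (unassigned libraries by title), 440 (by file name) and 342 (by file name with its number as replicate block). With a library left out it called 0 to 238, with 0 without midbrain replicate 1 of Exp 1 or striatum replicate 1 of Exp 2, 3 without striatum replicate 3 of Exp 2 and 9 without striatum replicate 1 of Exp 1. By file name, Adora2a had a log2 difference of 1.08 (unadjusted p = 0.0205 in limma, not called). No filter gave 822 in Exp 1, where a library left out gave 108 to 2445, and Exp 2 went from 468 to 204 (at least 10 counts), 307 (thinned), 988 (replicate block) and 132 (by title), with 393 to 1240 when a library was left out. DESeq2 called 2 interactions, none of the 9 genes. Same-numbered libraries did not deviate together (r = -0.04 in Exp 1 and 0.08 in Exp 2), and the numbers were not taken to pair them. That check cannot exclude pairing, since it rests on a single deviation per region and experiment. In Exp 2 it also includes the library with 575709 counts. The replicate block left the 9 genes at 0 calls.

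The joint log2 difference of Penk reversed with edgeR (0.70), DESeq2 (0.71) and the replicate block (0.30), and leaving out a library gave -0.44 to 0.64. That of Rgs9 ranged from -0.83 to 0.20. Both genes passed the filter in only 4 of the 8 joint fits with a library left out, so these ranges cover those fits alone. Log2 of the striatal sum, striatum over midbrain, ranged from -1.06 to -0.25 in Exp 1 and from -0.32 to 0.79 in Exp 2 (without midbrain replicates 3 and 1). The dopamine sum, midbrain minus striatum, was 0 CPM when thinned in both experiments and ranged from 0.166 to 0.528 CPM (Exp 1) and 0 to 0.234 CPM (Exp 2). The share difference, midbrain minus striatum, was 1.83 percentage points in Exp 1. With a library left out it ranged from 1.46 to 2.20 (Exp 1) and from -4.68 to 0.16 (Exp 2). Without Elavl3 it was 3.34 percentage points in Exp 1, but leaving out the counts of that gene raises every share. The midbrain shares went from 8.28% and 7.54% to 19.6% and 17.1%, and the striatum shares from 6.36% and 5.80% to 16.5% and 13.5%. The 1.83 and 3.34 points are therefore not on the same scale. The cause of the other changes was not tested. Depth limits Exp 2 most, where 3 counts in striatum replicate 3 are 5.24 CPM.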

Other observations

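The 2 libraries without a region were alike in the summed level of the 7 striatal genes, at 19.1 CPM (titled Mdb 2) and 21.3 CPM (titled Str 2). They differed in Adora2a (1 and 24 counts) and in the share of the striatal genes among neuronal counts. That share was 10.0% (6.87% to 14.0%) and 4.78% (3.96% to 5.73%), but without Elavl3 the intervals overlapped (15.1% to 29.4% and 11.5% to 16.4%). They also differed in RNA of other cells. The leukocyte and border macrophage genes summed to 841 CPM in the library titled Mdb 2 and 3370 CPM in that titled Str 2, beside 1352 to 8785 CPM in the assigned midbrain and 550.5 to 699.7 CPM in the assigned striatum libraries. The microglial genes summed to 24630 CPM in the library titled Mdb 2 and 11980 CPM in that titled Str 2, beside 12390 to 16150 CPM in the midbrain and 17890 to 25360 CPM in the striatum. These values were not used to give either library a region.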
